A study of Mus musculus with 28 samples.

Results

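The genes described here are 35 markers of microglia and of the macrophages at the borders of the brain, measured in dorsal hippocampus. They were chosen as a list and matched by symbol to Ensembl identifiers of the deposited count matrix, where 35 of 35 were found among 50686 genes. The series holds 28 RNA-seq libraries in 6 groups, all from male C57Bl6 mice and from the dorsal part of the hippocampus. Basal (n = 4) had no auditory fear conditioning and no treatment. The other 5 groups were all conditioned and received vehicle (Vehicle, n = 4), Cort (n = 5), RU486 (n = 5), C108 (n = 5) or C118 (n = 5). The series describes its treatments as ligands of the glucocorticoid receptor (GR), and RU486 (mifepristone) is an antagonist of that receptor. Basal and Vehicle therefore differ in conditioning and in the handling that goes with a vehicle treatment. For doses, routes, time points and ages, nothing was given in the sources used here. The labels do not say that the libraries of a group came from separate mice, so p-values measure the spread between these libraries. In whole tissue, fewer cells of a type and less RNA per cell cannot be told apart.

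Microglia are the resident macrophages of brain tissue. They depend on signals through the receptor CSF1R, take their identity from the transcription factors PU.1 (gene Spi1), IRF8 and SALL1 and from transforming growth factor beta, and survey their surroundings with receptors such as CX3CR1, for the neuronal ligand fractalkine, and P2RY12, for extracellular ADP. They also make C1q, the protein that starts the classical complement pathway, and clear debris through TREM2 and its adaptor DAP12 (gene Tyrobp). Macrophages of the meninges and of the spaces around vessels are a separate population marked by Mrc1, Cd163, Pf4 and Lyve1. Glucocorticoids act on microglia and macrophages through GR.

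The sequences before the start sites of 5 members are shown because of the calls of these genes: Nrros was called as higher than Basal in Vehicle, Cort, C108 and C118 by edgeR, and Cx3cr1, P2ry12, P2ry13 and Hpgds were called as lower in Cort. Each line holds the 250 bases before a RefSeq start site on GRCm38.p6, 5′ to 3′ on the minus strand. They lie at chr16:32165595-32165844 (Nrros), chr9:120068297-120068546 (Cx3cr1), chr3:59262986-59263235 (P2ry12), chr3:59210883-59211132 (P2ry13) and chr6:65144731-65144980 (Hpgds). Capitals mark AGGAAGT, the core of a PU.1 site, or AGAACA, one arm of a GR element, on either strand.
Nrros: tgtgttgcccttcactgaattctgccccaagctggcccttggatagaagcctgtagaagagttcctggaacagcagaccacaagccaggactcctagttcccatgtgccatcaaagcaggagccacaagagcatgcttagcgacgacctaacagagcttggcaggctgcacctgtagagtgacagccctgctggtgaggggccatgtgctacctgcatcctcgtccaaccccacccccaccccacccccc
Cx3cr1: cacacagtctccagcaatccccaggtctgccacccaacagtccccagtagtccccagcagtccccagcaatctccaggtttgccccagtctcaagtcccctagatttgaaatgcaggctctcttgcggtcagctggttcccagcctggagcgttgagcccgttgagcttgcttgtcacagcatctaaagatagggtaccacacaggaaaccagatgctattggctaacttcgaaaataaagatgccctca
P2ry12: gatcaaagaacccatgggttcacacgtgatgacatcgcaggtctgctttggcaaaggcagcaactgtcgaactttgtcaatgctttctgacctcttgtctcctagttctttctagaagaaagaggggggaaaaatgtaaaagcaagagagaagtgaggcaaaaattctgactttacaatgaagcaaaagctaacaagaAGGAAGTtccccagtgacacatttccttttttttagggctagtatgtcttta
P2ry13: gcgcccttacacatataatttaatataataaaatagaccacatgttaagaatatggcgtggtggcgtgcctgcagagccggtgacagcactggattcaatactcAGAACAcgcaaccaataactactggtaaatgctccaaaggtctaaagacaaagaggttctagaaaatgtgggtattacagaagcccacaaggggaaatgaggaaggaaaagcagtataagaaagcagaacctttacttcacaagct
Hpgds: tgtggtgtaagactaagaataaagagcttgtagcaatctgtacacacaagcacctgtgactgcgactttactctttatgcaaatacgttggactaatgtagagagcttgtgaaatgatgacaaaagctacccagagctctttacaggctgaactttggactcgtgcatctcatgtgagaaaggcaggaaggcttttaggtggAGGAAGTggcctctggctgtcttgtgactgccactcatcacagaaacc
P2ry12 and Hpgds hold AGGAAGT, at positions 199 and 203 of the window, and in Hpgds it is part of the longer match GAGGAAGT. P2ry13 holds AGAACA at position 105, and the windows of Nrros and Cx3cr1 hold neither motif. Over 300-base windows, which also take in the first 50 transcribed bases, 27 of the 35 members had at least 1 window in the RefSeq table, 33 windows in all. AGGAAGT stood in 36.4% of these windows, in 11 members, and in 9.35% of all 32851 windows. The longer GAGGAAGT stood in 15.2% of the member windows and in 3.2% of all. AGAACA stood in 33.3% of the member windows and in 19% of all. The full GR element, which has both arms, was found in 0 of the 33 member windows and in 0.475% of all. These matches describe letters in a window and say nothing of binding.

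Each library held between 16.24 and 20.3 M (mega) gene counts, and the 35 members together had between 533 and 888 CPM (counts scaled to a common library total with the TMM factors of edgeR). At this depth 34 members passed the filter on low counts and were tested. Pf4, a chemokine of border macrophages, did not, with 0 to 12 counts per library. A score was made for each list of genes by centring the log2 CPM of each gene on its mean over the 28 libraries and averaging over the list. Cort 36, C108 39 and C118 38 (the number is that of the library) stood apart, with member scores of -0.39, -0.44 and -0.50 against -0.13 to 0.42 in the other 25 libraries. They were the lowest of their own group for 26, 25 and 30 of the 34 tested members, and 1 of them was the lowest of all 28 libraries for 25 members. The same libraries had the lowest astrocyte scores, at -0.37, -0.52 and -0.58 against -0.15 to 0.28, the lowest endothelial scores, at -0.67, -1.18 and -1.21 against -0.60 to 0.87, and the highest neuron scores, at 0.21, 0.24 and 0.24 against -0.14 to 0.10. At the other end, C118 20 was the highest of all libraries for 16 of the 34 members. Cort 36, C108 39 and C118 38 also had the lowest shares of counts in rows that name no gene (13.82, 13.43 and 12.63%). Basal 27 was next at 14.14%. Their gene counts were 20.03, 20.15 and 20.3 M for Cort 36, C108 39 and C118 38, which carry the highest sample numbers of the series. The part of these library traits in the low scores was not tested. Defining genes of blood leukocytes were near 0: none of 17 passed the filter, and their summed level was at most 3.59 CPM in any library.

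**Figure D1:**
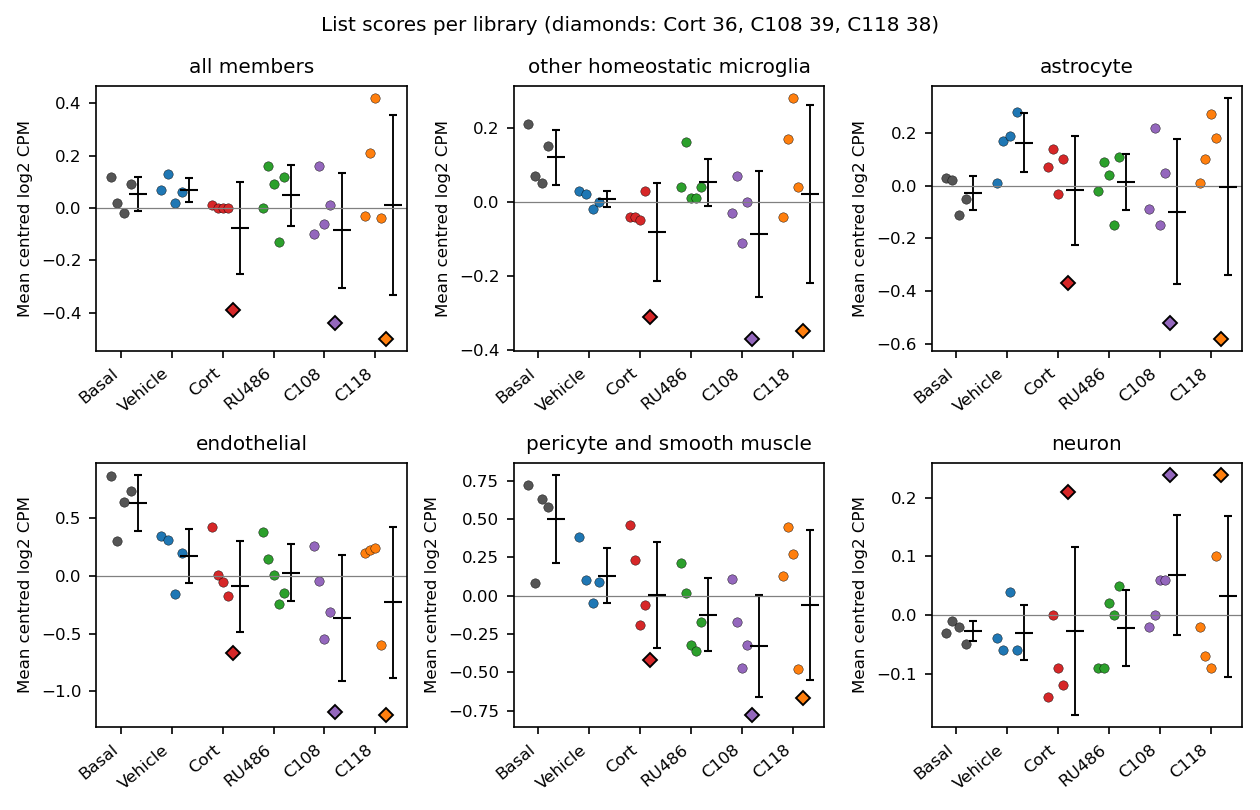
Scores of the 35-gene list, of other homeostatic microglia genes and of markers of astrocytes, endothelium, mural cells and neurons. The y axis is the mean centred log2 CPM of a list, each point is a library, and bars give the group mean with its SD. Diamonds mark Cort 36, C108 39 and C118 38, which lie lowest in the glial and endothelial panels and highest for neurons.

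Per kilobase of exon, the highest mean levels were those of lysosomal and complement genes. Ctss, the protease cathepsin S, had 48.8 CPM per kb, Lgmn, the protease legumain, 40.6, C1qb 38.9 and C1qa 36.3. Tyrobp followed at 19.6, C1qc at 19.1, Csf1r at 14.8 and P2ry12 at 12. The surface receptors and markers that define homeostatic microglia were present throughout, with Cx3cr1 at 8.78, Tmem119 at 8.20 and Siglech at 4.38 CPM per kb, and none of these defining genes was at 0 in any library. Border macrophage genes were low, with Pf4 at 0.271, Mrc1 at 0.205, Lyve1 at 0.174 and Cd163 at 0.126 CPM per kb. Ptprc was at 0.146 CPM per kb, over 18313 annotated exonic bases. Without the division by length its mean was 2.68 CPM, above the 1.31 CPM of Mrc1. Within groups, the steadiest members were Selplg and Lgmn, each with a pooled SD of 0.13 on the log2 scale, and the most variable were Lyve1 (0.61) and Mrc1 (0.58), which rest on 2 to 22 and 8 to 56 counts per library.

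Against Basal, the list was split in Cort and C108. In Vehicle, RU486 and C118 at most 2 of the 34 members were called, near or under the shares of all tested genes given below. Of the C108 calls, only that of Nrros held in every alternative run. Members called as lower numbered 6 in Cort, 5 in C108, 1 in Vehicle and 0 in RU486 and C118 by edgeR. They were receptors and regulators of homeostatic microglia, with Hpgds in Cort and C108 and Olfml3 in C108 besides. Nrros rose in 4 of the 5 groups, RU486 being the exception, and the genes of complement, Fc receptor signalling and the lysosome did not pass the test in any group. By the quasi-likelihood test of edgeR (Benjamini-Hochberg adjusted p under 0.05 over all 16735 tested genes), 2 of the 34 members changed in Vehicle, where 4.11% of all tested genes did. P2ry13 fell, as did 2.47% of all genes, and Nrros rose, as did 1.64%. In Cort 8 members changed, against 6.27% of all tested genes. Of these, 6 fell (Cx3cr1, P2ry12, P2ry13, Sall1, Irf8 and Hpgds), where 3.43% of all genes fell, and 2 rose (Nrros and Lyve1), where 2.84% of all genes rose. In C108 6 members changed, against 6.04% of all. Cx3cr1, P2ry13, Olfml3, Sall1 and Hpgds fell, where 3.24% of all genes did, and Nrros rose, where 2.79% did. In C118 only Nrros passed, as a rise, against 3.87% of all genes called and 1.74% called as higher. In RU486 the count was 0 by edgeR, against 5.45% of all genes, with 9 members at an unadjusted p under 0.05 (22% of all genes) and 2 called by DESeq2 (P2ry13 and Hpgds, both lower). The median log2 fold change of the 34 members against Basal was 0.03 in Vehicle, -0.08 in Cort, 0.05 in RU486, -0.09 in C108 and 0.02 in C118, beside 0.00 to 0.01 for all tested genes. These comparisons share the Basal libraries. A test over the 6 groups at once called Nrros, Cx3cr1, P2ry13 and Hpgds, against 4.73% of all tested genes. Without Cort 36, C108 39 and C118 38, the members called against Basal numbered 11 in Cort, 4 in C108 and 1 in C118, and 6 members were called over the groups. The share of all genes called in that fit is not given here.

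**Figure D2:**
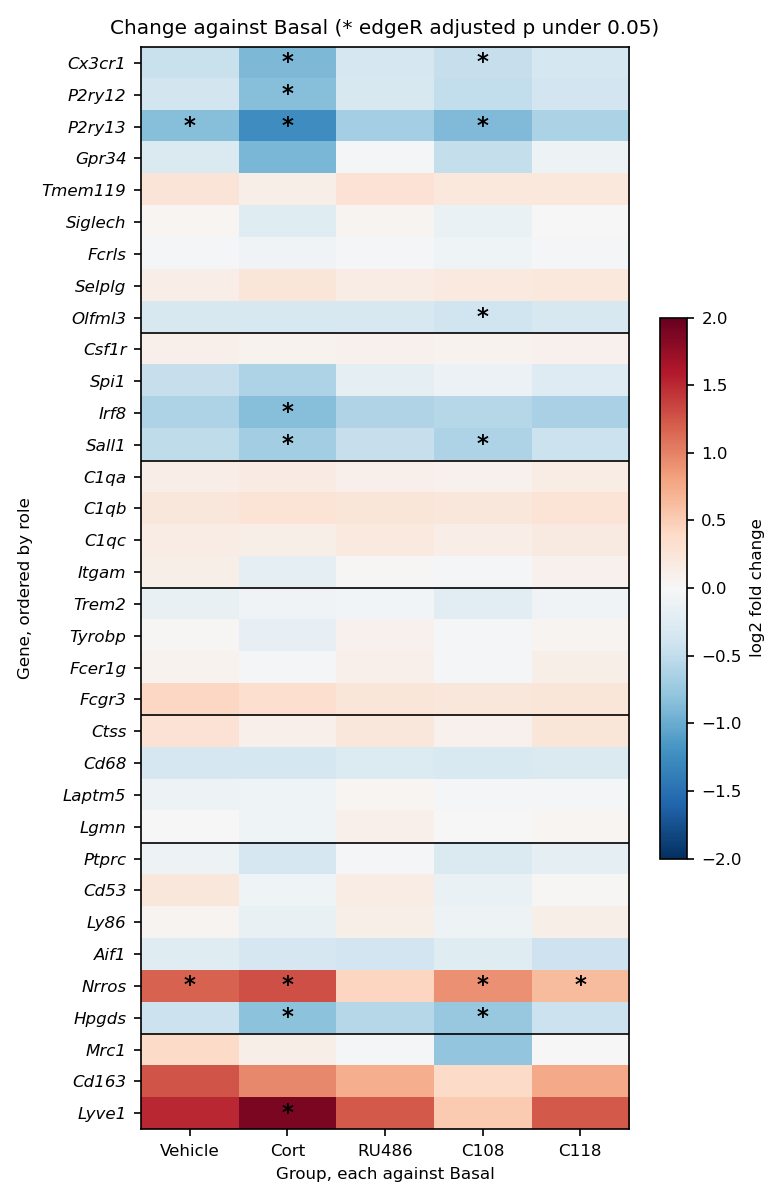
Log2 fold change of the 34 tested members in each conditioned group against Basal. Rows are genes in the order of their roles, columns are groups, colour gives the log2 fold change (blue lower, red higher), and stars mark an edgeR adjusted p under 0.05. Stars lie on Cx3cr1, the P2Y receptors, Olfml3, Sall1, Irf8, Hpgds, Nrros and Lyve1, and none lies on the complement, TREM2 or lysosome rows.

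Among the 9 surface receptors and markers, Cx3cr1 had the smallest adjusted p over the 6 groups (0.00238 by edgeR). Its gene model (chr9:119901616-120069879, minus strand, GENCODE M21) is long, and 78 of its 4505 exonic bases are shared with an exon of the gene Gm33858 on the other strand. In order of library number, its level was 54.9, 48.2, 48.7 and 57.8 CPM in Basal. It was 38.5, 38.3, 37.3 and 39.9 in Vehicle and 27, 28.7, 31.6, 27.2 and 26.1 in Cort. It was 42.6, 49.3, 32.9, 39.6 and 42.6 in RU486, 35, 40.3, 41.2, 46.8 and 27.6 in C108 and 39.6, 46.4, 51.8, 38.2 and 29.1 in C118. All Cort libraries lay below all Vehicle libraries, which in turn lay below all Basal libraries, and 22 of the 24 conditioned libraries lay below the Basal range, the exceptions being RU486 12 and C118 20. The group means were 52.4 ± 4.73 CPM (SD, n = 4) in Basal, 38.5 ± 1.09 (n = 4) in Vehicle and 28.1 ± 2.16 (n = 5) in Cort. Against Basal the log2 fold change was -0.90 ± 0.13 (SE) in Cort, with an edgeR adjusted p of 5.63e-05, a call that held in every alternative run. In C108 it was -0.46 ± 0.13, with an adjusted p of 0.0359. That call was lost without C108 39 (0.122), C108 8 (0.0535), C108 26 (0.0547), Basal 1 (0.117), Basal 14 (0.0689) or Basal 27 (0.096). In Vehicle it was -0.44 ± 0.14, with an adjusted p of 0.0643 that missed the threshold, while DESeq2 gave 0.0397.

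P2ry12 and P2ry13 are neighbouring receptors for ADP on chromosome 3 (chr3:59216272-59262871 and chr3:59207892-59210882). Their means also fell from Basal through Vehicle to Cort. For both genes the Vehicle and Basal libraries overlapped, and for P2ry13 those of Cort and Vehicle did too. Both genes lie inside the larger gene Med12l on the other strand, and share 9 exonic bases (P2ry12) and none (P2ry13) with its exons. Med12l differed by -0.19 ± 0.11 between Cort and Basal (edgeR adjusted p = 0.357). The strand setting of the counting was not given, and the part of Med12l reads in the counts of P2ry12 and P2ry13 was not tested. P2ry12 had 46.9, 38.9, 41.3 and 34.2 CPM in Basal, 27.8, 30.7, 31.3 and 34.8 in Vehicle and 24, 25.3, 27.8, 17.9 and 16.2 in Cort. It had 31, 38, 30.2, 28.5 and 34.6 in RU486, 29, 39.5, 25.8, 29.7 and 18.9 in C108 and 35.5, 38.6, 38.6, 27.5 and 14 in C118. Every Cort library lay below every Basal library and below every RU486 library, while C108 and C118 spread widely, with C108 39 and C118 38 at their low ends. The log2 fold change of P2ry12 in Cort against Basal was -0.86 ± 0.21 (edgeR adjusted p = 0.0123), and the call was lost without Basal 1 (0.0591).

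P2ry13 had 14.2, 7.62, 13.5 and 14.8 CPM in Basal, 6.35, 8.36, 6.75 and 6.34 in Vehicle and 5.06, 5.82, 6.35, 4.45 and 4.76 in Cort. It had 8.23, 9.34, 6.17, 7.69 and 7.54 in RU486, 5.97, 8.98, 6.19, 8.57 and 4.22 in C108 and 8.36, 8.16, 12.1, 7.35 and 4.42 in C118. Basal 9 was low within its group, and Cort was the 1 conditioned group that lay wholly below the Basal range. Against Basal, P2ry13 fell by 1.24 ± 0.22 on the log2 scale in Cort (edgeR adjusted p = 0.000484), a call that held in every alternative. It fell by 0.88 ± 0.22 in C108 (adjusted p = 0.0149) and by 0.85 ± 0.23 in Vehicle (adjusted p = 0.0317). The C108 call was lost without C108 39 (0.0526), Basal 1 (0.0693), Basal 14 (0.0564) or Basal 27 (0.0501). The Vehicle call was lost without any 1 of Basal 1 (0.0976), Basal 14 (0.107), Basal 27 (0.111), Vehicle 3 (0.0697), Vehicle 23 (0.0657) or Vehicle 29 (0.0867). The call over the 6 groups (adjusted p = 0.01) was lost without Basal 1 (0.0639), Basal 14 (0.0618) or Basal 27 (0.0624).

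Olfml3, which encodes a secreted olfactomedin-like protein, had 16.7, 17.1, 17.3 and 19.2 CPM in Basal and 14.7, 13.9, 13.7 and 14.2 in Vehicle. It had 14.1, 16.1, 14, 14.8 and 11.8 in Cort, 13.2, 16.3, 14.4, 12.9 and 13.9 in RU486, 12.5, 15.3, 13.7, 15.5 and 9.65 in C108 and 12.6, 15.4, 17.6, 13.8 and 11.3 in C118. Of the 24 conditioned libraries, 23 lay below the Basal range, C118 20 being the exception. The change passed the test only in C108, at -0.40 ± 0.12 with an edgeR adjusted p of 0.0454. That call held in 5 of 18 alternatives, and it was lost without any 1 of the 4 Basal libraries (0.0576 to 0.114) and without C108 8 (0.0622), C108 26 (0.0822) or C108 39 (0.155). The other 5 markers did not pass the test against Basal in any group. Gpr34, a receptor for lysophosphatidylserine, was at -0.92 ± 0.29 in Cort (adjusted p = 0.0623), and it was called as lower by DESeq2 (0.0221) and without Cort 36, C108 39 and C118 38 (0.0329). Tmem119, a membrane protein that marks resident microglia, lay on the other side: 20 of the 24 conditioned libraries were above its Basal range of 16.2 to 17.1 CPM, with log2 fold changes from 0.12 in Cort to 0.29 in RU486, none past the test. Selplg, the ligand of P-selectin, ran from 0.14 to 0.25, and was called in Cort (adjusted p = 0.0447) without Cort 36, C108 39 and C118 38. Siglech, a sialic acid-binding lectin, ran from -0.24 to 0.06. Fcrls, an Fc receptor-like scavenger, stayed between -0.08 and -0.02.

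**Figure D3:**
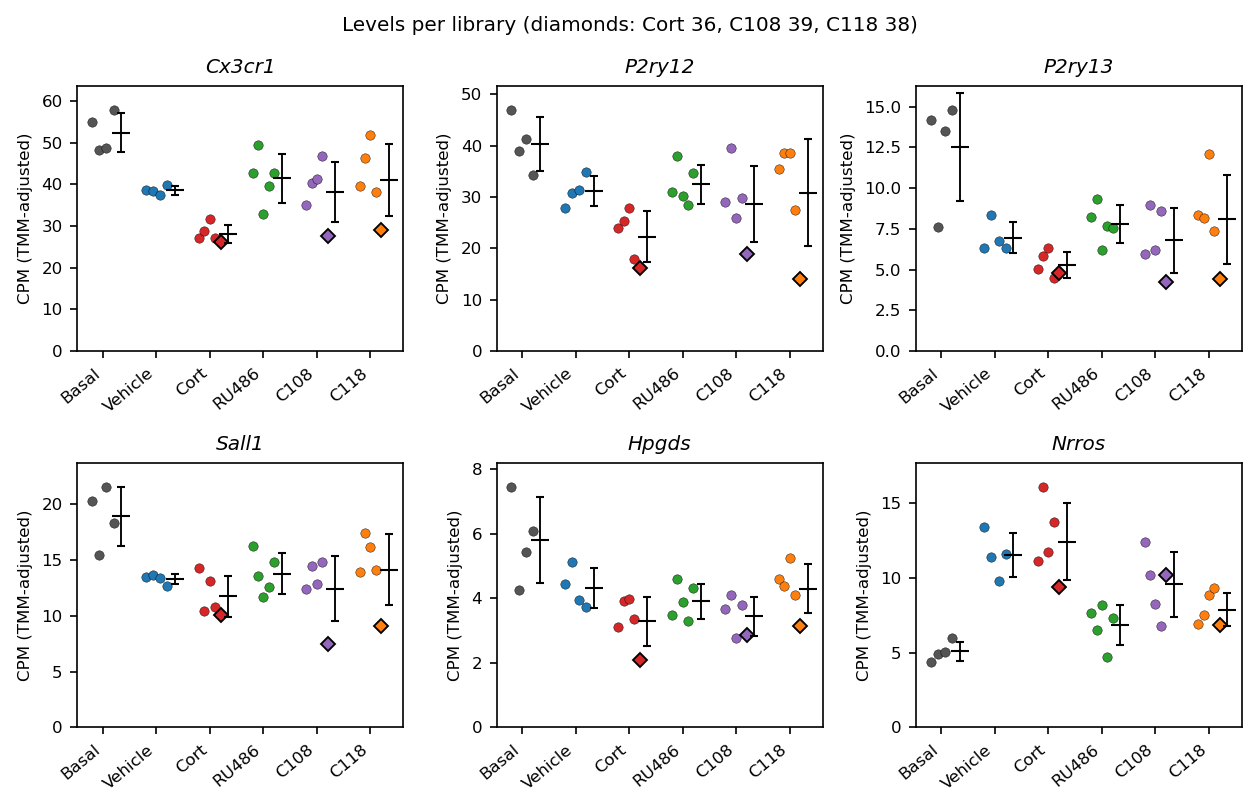
Levels of 6 members with calls, in CPM on a linear axis from 0, for each library by group, with the mean and SD beside the points. Diamonds mark Cort 36, C108 39 and C118 38. Basal lies highest for Cx3cr1, P2ry12, P2ry13, Sall1 and Hpgds and lowest for Nrros.

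Of the growth factor receptor and the 3 transcription factors, Sall1 and Irf8 fell in Cort and Csf1r did not pass the test in any group. Sall1, a zinc finger factor that maintains microglial identity (chr8:89027235-89044162), had 20.3, 15.5, 21.6 and 18.3 CPM in Basal, 13.5, 13.7, 13.4 and 12.7 in Vehicle and 14.3, 10.4, 13.1, 10.8 and 10.1 in Cort. It had 16.3, 13.6, 11.7, 12.6 and 14.8 in RU486, 12.4, 14.5, 12.9, 14.8 and 7.52 in C108 and 13.9, 17.4, 16.2, 14.1 and 9.09 in C118. The Vehicle, Cort and C108 libraries all lay below the Basal range. Sall1 fell by 0.69 ± 0.16 on the log2 scale in Cort (edgeR adjusted p = 0.00712) and by 0.61 ± 0.16 in C108 (adjusted p = 0.023). The C108 call was lost without C108 39 (0.0727), Basal 1 (0.0893) or Basal 14 (0.107). Irf8, an interferon regulatory factor required for microglial development, had 4.71, 2.58, 3.35 and 4.92 CPM in Basal and 2.38, 2.46, 2.68 and 2.66 in Vehicle. It had 2.71, 2.01, 2.22, 2.17 and 1.69 in Cort, 2.46, 2.29, 2.34, 2.88 and 2.9 in RU486, 1.81, 2.46, 3.45, 3.4 and 1.98 in C108 and 2.02, 3.18, 3.11, 2.64 and 1.46 in C118. Basal itself was spread, and Cort overlapped it at the level of Basal 9. Irf8 fell by 0.85 ± 0.22 in Cort (adjusted p = 0.0148), a call lost without Basal 1 (0.0803) or Basal 27 (0.0748). Spi1, which encodes PU.1, was at -0.61 ± 0.23 in Cort (adjusted p = 0.106), with 17 to 47 counts per library. Csf1r, by contrast, was at 0.06 ± 0.10 in Cort and at most 0.10 in any group, with levels of 70.4 to 98.4 CPM, and 873 of its 5774 exonic bases overlap Hmgxb3 on the other strand.

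None of the 4 complement genes passed the test against Basal or over the 6 groups. The 6-group test of edgeR was nearest to a call for C1qb (adjusted p = 0.741). C1qb, the B chain of C1q (chr4:136880129-136886187), had 35.3, 38.7, 36 and 35.6 CPM in Basal, 41.8, 43.5, 47.9 and 37.8 in Vehicle and 45.1, 48.7, 45.6, 49.1 and 32.1 in Cort. It had 36.4, 41.1, 54.6, 36.7 and 47.1 in RU486, 40.7, 50.9, 45.8, 43.8 and 31 in C108 and 36.9, 44.9, 58.1, 46.6 and 32.4 in C118. Of the 24 conditioned libraries, 17 were above the Basal range and 3 below it, the latter being Cort 36, C108 39 and C118 38. The log2 fold change of C1qb against Basal lay between 0.22 and 0.28, that of C1qa between 0.09 and 0.17, and that of C1qc between 0.12 and 0.20. Itgam, the integrin alpha M chain of complement receptor 3, lay between -0.18 and 0.11; 3450 of its 5024 exonic bases are shared with another gene model on the same strand, so its count is uncertain.

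In the class of TREM2, DAP12 and the Fc receptors, Fcgr3, a receptor for immunoglobulin G, came nearest to a call over the 6 groups (edgeR adjusted p = 0.499). It had 10.3, 12.6, 8.68 and 11.1 CPM in Basal, 13, 14.4, 15.7 and 13.7 in Vehicle and 13.4, 13.8, 15.5, 15.1 and 9.77 in Cort. It had 11.2, 15.1, 13.1, 11.4 and 12.3 in RU486, 10.5, 14.7, 12.9, 14.8 and 9.71 in C108 and 12.2, 14.6, 15.3, 11.7 and 9.24 in C118. All Vehicle libraries lay above the Basal range, and the other groups overlapped it. Fcgr3 was at 0.41 ± 0.16 in Vehicle (adjusted p = 0.144) and at 0.34 ± 0.15 in Cort (0.192), and without Cort 36, C108 39 and C118 38 the Cort value was 0.44 and was called (adjusted p = 0.0293). Trem2, a lipid-sensing receptor, lay between -0.22 and -0.06, Tyrobp between -0.16 and 0.09, and Fcer1g, the common gamma chain of Fc receptors, between -0.04 and 0.12, with no call.

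The lysosomal genes had no call either. Lgmn came nearest over the groups (edgeR adjusted p = 0.658), with 89.1, 88.5, 90.0 and 105.9 CPM in Basal, 84.6, 96.1, 93 and 99.3 in Vehicle and 87, 79.8, 83, 96 and 95.3 in Cort. It had 90.3, 98.3, 104.1, 101.4 and 107.7 in RU486, 78.3, 94.4, 104, 98.9 and 92.4 in C108 and 82.3, 92.6, 113.7, 95.1 and 96.9 in C118. The groups overlapped throughout, and the libraries that were low for most members were not low here. Its largest difference from Basal was 0.10 in RU486, with a 95% interval of -0.07 to 0.28. Ctss ran from 0.09 in C108 to 0.28 in Vehicle, where all libraries lay above the Basal range of 56.3 to 62.6 CPM. Cd68, a lysosomal membrane glycoprotein, was lower in every group, from -0.35 in Cort to -0.27 in RU486, without passing the test. Laptm5, a lysosomal membrane protein of leukocytes, stayed between -0.10 and 0.04.

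Nrros had the smallest adjusted p of the members over the 6 groups (0.000101 by edgeR) and was the 1 member called as higher in 4 conditioned groups. Its product, a leucine-rich repeat protein, holds latent transforming growth factor beta at the surface of microglia, and the gene lies at chr16:32142785-32165594 on the minus strand with no exon shared with another gene. Nrros had 4.4, 4.88, 5.03 and 5.98 CPM in Basal, 13.4, 11.4, 9.76 and 11.6 in Vehicle and 11.1, 16.1, 11.7, 13.7 and 9.41 in Cort. It had 7.62, 6.52, 8.19, 4.7 and 7.28 in RU486, 12.4, 10.2, 8.25, 6.75 and 10.2 in C108 and 6.89, 7.53, 8.84, 9.3 and 6.83 in C118. Of the 24 conditioned libraries, 23 lay above the Basal range, RU486 25 being the exception, and all RU486 and C118 libraries lay below all Vehicle and all Cort libraries. The group means were 5.07 ± 0.663 CPM (SD, n = 4) in Basal, 11.5 ± 1.48 (n = 4) in Vehicle, 12.4 ± 2.59 (n = 5) in Cort, 6.86 ± 1.35 (n = 5) in RU486, 9.56 ± 2.16 (n = 5) in C108 and 7.88 ± 1.14 (n = 5) in C118. Against Basal the log2 fold change was 1.18 ± 0.18 in Vehicle (edgeR adjusted p = 0.000152), 1.29 ± 0.17 in Cort (1.71e-05) and 0.91 ± 0.17 in C108 (0.00241), and these 3 calls held in every alternative. It was 0.63 ± 0.18 in C118 (adjusted p = 0.0376), a call lost without Basal 1 (0.141), Basal 9 (0.0614), Basal 14 (0.123), C118 13 (0.0531), C118 20 (0.0758) or C118 33 (0.101). In RU486 it was 0.43 ± 0.18, with an adjusted p of 0.143 that missed the threshold. C108 39, low for most members, was not low for Nrros.

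Hpgds, the hematopoietic prostaglandin D synthase (chr6:65117293-65144908), fell in Cort and C108. It had 7.47, 4.27, 5.43 and 6.08 CPM in Basal, 4.44, 5.13, 3.96 and 3.74 in Vehicle and 3.12, 3.92, 3.97, 3.36 and 2.1 in Cort. It had 3.5, 4.59, 3.88, 3.29 and 4.32 in RU486, 3.67, 4.11, 2.78, 3.81 and 2.85 in C108 and 4.59, 4.4, 5.26, 4.12 and 3.16 in C118. All Cort and C108 libraries lay below the Basal range, and 17 of the 24 conditioned libraries did. Hpgds fell by 0.82 ± 0.18 on the log2 scale in Cort (edgeR adjusted p = 0.0041), a call that held in every alternative, and by 0.76 ± 0.18 in C108 (adjusted p = 0.0119), a call lost without Basal 1 (0.0893). Its call over the 6 groups (adjusted p = 0.0338) was lost without Basal 1 (0.198), Basal 14 (0.0955), Basal 27 (0.108), Cort 4 (0.0526), Cort 30 (0.057), C108 26 (0.0551) or C108 39 (0.0556). The other 4 leukocyte genes had no call against Basal. Ptprc (CD45) lay between -0.33 and -0.03, Cd53, a tetraspanin, between -0.14 and 0.23, and Ly86, the partner of the receptor RP105, between -0.15 and 0.12. Aif1, which encodes the microglial stain IBA1, was lower in every group, from -0.41 to -0.24, without passing the test.

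The border macrophage genes were at the limit of detection. Lyve1, a hyaluronan receptor, had 0.256, 0.164, 0.102 and 0.338 CPM in Basal, 1.14, 0.77, 0.223 and 0.358 in Vehicle and 0.921, 1.06, 0.929, 0.84 and 0.358 in Cort. It had 0.43, 0.469, 0.372, 0.405 and 0.896 in RU486, 0.274, 0.383, 0.413, 0.254 and 0.254 in C108 and 0.656, 0.695, 0.789, 0.106 and 0.351 in C118. The Cort and RU486 libraries lay above the Basal range, in which the counts were 2 to 7. Lyve1 rose in Cort by 1.89 ± 0.48 on the log2 scale (edgeR adjusted p = 0.0132), a call lost without Basal 14 (0.0753). Cd163, a scavenger receptor for haemoglobin, was at 1.26 ± 0.42 in Vehicle (0.0882) and 0.95 ± 0.41 in Cort (0.188), on 4 to 29 counts per library. Mrc1, the mannose receptor, ran from -0.78 ± 0.39 in C108 to 0.39 ± 0.39 in Vehicle, neither past the test.

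**Figure D4:**
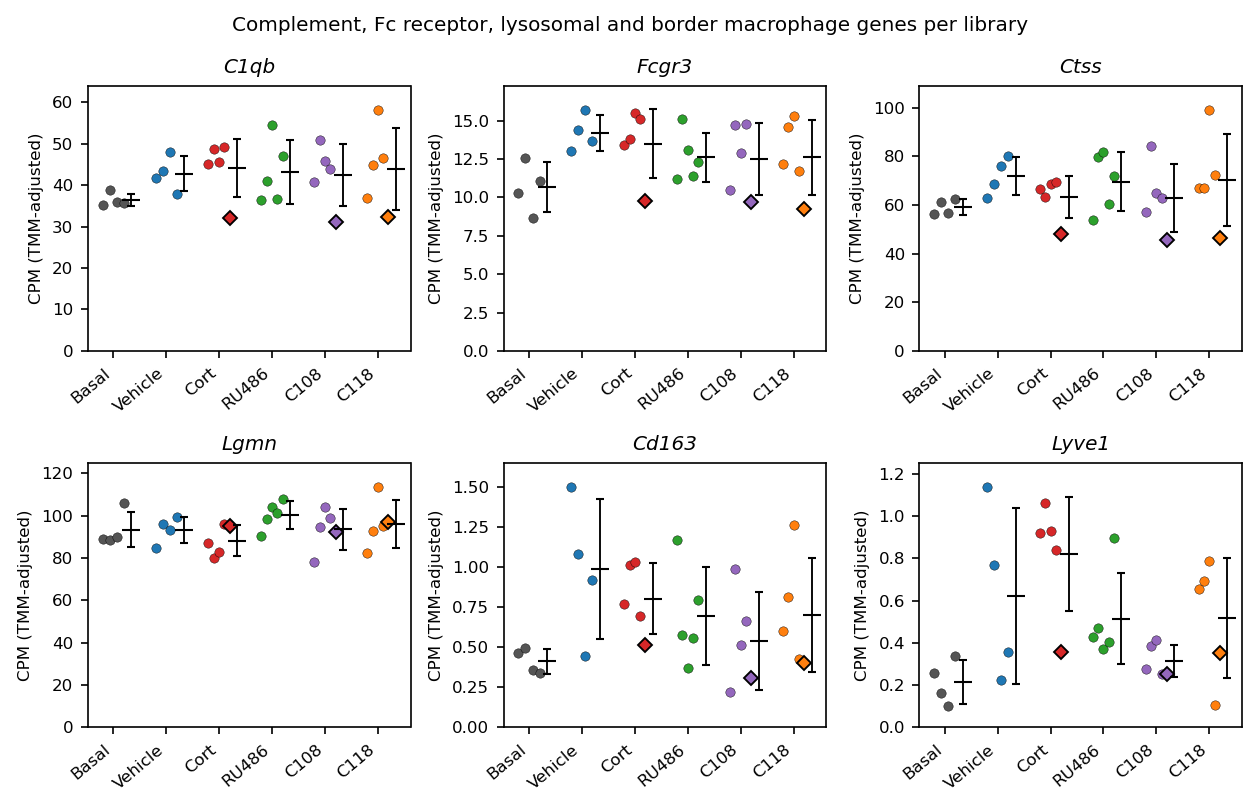
Levels of 6 members of the complement, Fc receptor, lysosome and border macrophage classes, in CPM on a linear axis from 0, for each library by group, with the mean and SD beside the points. Diamonds mark Cort 36, C108 39 and C118 38. The groups overlap for Lgmn, all Vehicle libraries lie above the Basal range for Ctss, and all Cort libraries do for Lyve1.

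Since the 3 low libraries carried less of nearly every member, levels were also set against C1q in the same library, as the log2 ratio of a member to the mean of C1qa, C1qb and C1qc, centred over the libraries. This ratio describes unequal change between members. For Cx3cr1 its mean was 0.58 ± 0.18 (SD, n = 4) in Basal and -0.03 ± 0.15 (n = 4) in Vehicle. It was -0.49 ± 0.22 in Cort, 0.06 ± 0.34 in RU486, -0.03 ± 0.14 in C108 and 0.03 ± 0.10 in C118 (n = 5 each). All 24 conditioned libraries lay below the 4 Basal libraries for Cx3cr1, and likewise for P2ry12 and Olfml3. P2ry13, Irf8, Sall1 and Hpgds overlapped Basal. In RU486, 2 of 5 libraries lay below Basal for P2ry13 and for Irf8 and 4 of 5 for Sall1. In Vehicle, 2 of 4 did for Hpgds. C1qa, C1qb and C1qc had higher means in every conditioned group (C1qb 42.4 to 44.1 CPM against 36.4 in Basal), without a call. A higher C1q level lowers the ratio of every member in these groups. P2ry12 had ratios of 0.59 ± 0.22 in Basal, 0.05 ± 0.20 in Vehicle and -0.47 ± 0.28 in Cort. On this scale Cort 36, C108 39 and C118 38 were not the lowest of their groups for Cx3cr1, whereas C108 39 and C118 38 were for P2ry12. Csf1r had means between -0.04 and 0.07 in all 6 groups. The ratio for Nrros was -0.60 ± 0.19 in Basal, 0.41 ± 0.27 in Vehicle, 0.50 ± 0.18 in Cort, -0.36 ± 0.23 in RU486, 0.16 ± 0.45 in C108 and -0.15 ± 0.21 in C118.

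**Figure D5:**
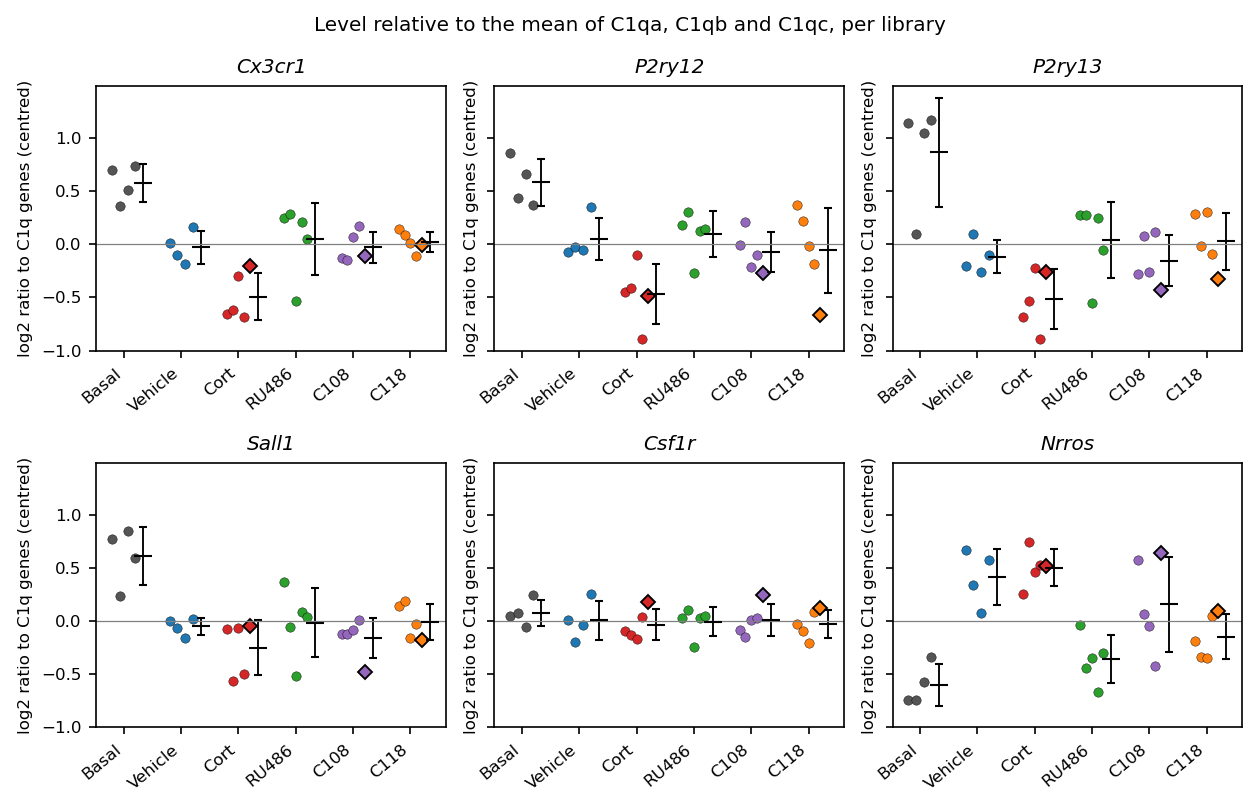
Log2 ratio of 6 members to the mean of C1qa, C1qb and C1qc in the same library, centred over the 28 libraries. Points are libraries, bars give the mean and SD of a group, and diamonds mark Cort 36, C108 39 and C118 38. Basal lies above every other library for Cx3cr1 and P2ry12 and Cort lies lowest in the mean, while Csf1r shows no separation of groups.

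Direct comparisons between the treated groups and Vehicle gave no call among the members by edgeR. In Cort against Vehicle 0 members passed, where 0.00598% of all tested genes did, and DESeq2 called 0. An unadjusted p under 0.05 was found for 4 of the 34 members (Cx3cr1, P2ry12, Hpgds and Gpr34, all lower). That is near the share of all genes (11.6%), so the count does not set the members apart. Cx3cr1 was at -0.45 ± 0.13 (edgeR adjusted p = 0.203, 95% interval -0.73 to -0.18). Its Cort and Vehicle libraries did not overlap, and the share of all genes without overlap is not given here. In RU486 against Vehicle 0 passed, where 0% of all genes did, 1 had an unadjusted p under 0.05 (8.16% of all genes) and DESeq2 called the same gene. That gene was Nrros, at -0.75 ± 0.17 (edgeR adjusted p = 0.115, DESeq2 0.0132). In C108 against Vehicle 0 passed, where 0.215% of all genes did, and DESeq2 called 0. An unadjusted p under 0.05 was found for 3 of the 34 members, a smaller share than the 17.4% of all genes. These 3 were the border macrophage genes Mrc1 (-1.17 ± 0.39), Cd163 (-0.88 ± 0.39) and Lyve1 (-0.98 ± 0.46), all lower. Lists of other tissue were lower beside them: the log2 fold change of C108 against Vehicle was below 0 for 10 of 10 fibroblast and meninges genes (median -0.90), 5 of 5 tested red blood cell genes (-0.79), 12 of 12 choroid plexus genes (-1.70) and 13 of 14 tested thalamic genes (-1.57). Their summed levels overlapped between the groups, for fibroblast and meninges genes 29.1 to 56.7 CPM in C108 and 38.9 to 98.5 in Vehicle. The share of all tested genes below 0 in this comparison is not given here. Within Vehicle, border macrophage members scored 1.18 and 0.7 in libraries 3 and 16, against -0.74 and 0.18 in libraries 23 and 29. Thalamic scores were 1.17 and 2.1 against -0.39 and -0.38, and choroid plexus scores 1.21 and 2.03 against -1.29 and -0.07. The part of these lists in the 3 differences was not tested. In C118 against Vehicle 0 passed, where 0% of all genes did, 1 had an unadjusted p under 0.05 (8.01% of all genes) and DESeq2 called 0. It was again Nrros, at -0.55 ± 0.17 (adjusted p = 0.286). A p that misses the threshold at 4 or 5 libraries per group does not show that groups were alike.

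The 4 ligands were compared with each other in 6 pairs, each adjusted over all genes. Whether their doses and times match was not given. Of these, 1 pair gave a call: Nrros was higher in Cort than in RU486 by 0.86 ± 0.16 (edgeR adjusted p = 0.0275), where 0.0538% of all tested genes passed and 0.0478% passed as higher. The call was lost without any 1 of Cort 4 (0.0518), Cort 11 (0.0892), Cort 30 (0.113), RU486 12 (0.0782), RU486 25 (0.139) or RU486 32 (0.0693). In the same pair Cx3cr1 was at -0.56 ± 0.13 (edgeR adjusted p = 0.105), with no overlap between the groups. The share of all genes without overlap is not given for this pair. Cx3cr1 was called here by DESeq2 (0.0152) and without Cort 36, C108 39 and C118 38 (0.0413). The other 5 pairs had 0 members called by edgeR and 0% of all genes called. In Cort against C118, 6 members had an unadjusted p under 0.05 (4.26% of all genes) and DESeq2 called 1, Cx3cr1, at -0.54 ± 0.13 (edgeR adjusted p = 0.215, DESeq2 0.0349). In Cort against C108, 5 members had an unadjusted p under 0.05 (4.88% of all genes), and Cx3cr1 was at -0.44 ± 0.13 with a 95% interval of -0.70 to -0.18. The numbers of members with an unadjusted p under 0.05 were 1 in C108 against RU486 (5.74% of all genes), 0 in C118 against RU486 (1.83%) and 1 in C108 against C118 (2.4%), and DESeq2 called 0 in these 3 pairs and in Cort against C108. For Cx3cr1 the interval of C108 minus C118 was -0.36 to 0.15, and for Nrros it was -0.05 to 0.60.

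A list of 35 other genes of homeostatic microglia, all of them tested, had calls by edgeR in each group against Basal. There were 2 in Vehicle, 6 in Cort, 2 in RU486, 3 in C108 and 1 in C118, all lower, where 2.47, 3.43, 2.84, 3.24 and 2.13% of all tested genes were called as lower. The list medians ran from -0.15 to 0.01 on the log2 scale. Cd33, a sialic acid-binding inhibitory receptor, fell in Cort (-1.08 ± 0.20, edgeR adjusted p = 0.000798), RU486 (-0.66, 0.0464) and C108 (-0.76, 0.022). Pik3ap1 (-1.11) and Dock8 (-0.66), signalling proteins of leukocytes, also fell in Cort, with adjusted p of 0.00832 and 0.0255.

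Among 22 genes that signal to microglia or act with them, 21 were tested and 3 or 4 were called in each group against Basal, where 3.87 to 6.27% of all tested genes were. Mertk, a receptor for the uptake of dying cells, rose in all 5 groups, from 25.5 ± 2.63 CPM (SD, n = 4) in Basal to 52.8 ± 6.37 (n = 4) in Vehicle, 48.4 ± 5.80 in Cort, 40.1 ± 5.61 in RU486, 43.0 ± 4.64 in C108 and 43.9 ± 8.70 in C118 (n = 5 each). Its log2 fold change was 1.05 ± 0.14 in Vehicle (edgeR adjusted p = 2.89e-05). Il6ra, a chain of the interleukin-6 receptor, rose in all 5 groups, by 0.64 in C118 to 0.88 in Cort. Tyro3, a relative of Mertk found in neurons, fell in Cort (-0.48, adjusted p = 0.000838), RU486 (-0.30, 0.0474) and C118 (-0.39, 0.0128). Csf1, a ligand of Csf1r, fell in Vehicle (-0.40, 0.0176). Smad3, a mediator of transforming growth factor beta signals, fell in Vehicle (-0.53, 0.00426), and its receptor gene Tgfbr2 fell in C108 (-0.64, 0.0245).

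Some markers of vessels and myelin were also lower than in Basal, with counts by group that differed from those of the members. The 14 endothelial genes, all tested and none at 0, had summed levels of 167 to 236 CPM in Basal. The sums were lower at their low ends elsewhere: Vehicle had 130 to 179, Cort 85.6 to 190, RU486 110 to 182, C108 62.4 to 173 and C118 61.7 to 168 CPM. Of them, 1 fell in Vehicle, 3 in Cort, 2 in RU486, 6 in C108 and 4 in C118, beside the 2.47, 3.43, 2.84, 3.24 and 2.13% of all tested genes that fell, and none rose. The 10 genes of pericytes and smooth muscle, none at 0, summed to 96.9 to 136 CPM in Basal. Vehicle had 75.3 to 117, Cort 62.1 to 115, RU486 64.8 to 103, C108 45.5 to 98.3 and C118 46.6 to 109 CPM. In RU486 and C108 2 of these genes fell, in each other group 1, and the median log2 fold change was -0.34 in Vehicle, -0.41 in Cort, -0.56 in RU486, -0.72 in C108 and -0.48 in C118. The 12 genes of oligodendrocytes and myelin, none at 0, summed to 6150 to 8530 CPM in Basal. Vehicle had 5350 to 8020, Cort 4610 to 8300, RU486 5730 to 8230, C108 4230 to 8290 and C118 4770 to 7990 CPM. Of them 4 fell in Cort, 3 in C108, 2 in Vehicle, 2 in C118 and 0 in RU486 by edgeR, where 3 had an unadjusted p under 0.05. All 12 had a log2 fold change below 0 in Cort (median -0.37) and in C108 (-0.41), and the medians were -0.23 in Vehicle, -0.11 in RU486 and -0.16 in C118. Thalamic marker genes, 14 of 15 tested, had summed levels of 322 to 442 CPM in Basal and reached 1110 CPM in Vehicle, where the lowest was 286. Cort had 346 to 576, RU486 260 to 435, C108 264 to 319 and C118 at most 417 CPM. With scores of thalamic and neocortical genes as covariates, 4 members were called in Cort against Basal in place of 8, 1 in C108 in place of 6, and 0 in C118. The share of all genes called with these covariates is not given here. In that fit the edgeR calls in Cort were lost for P2ry12 (log2 fold change -0.81, from -0.86 without the scores, adjusted p = 0.131), Sall1 (-0.70 from -0.69, 0.0605), Irf8 (-0.91 from -0.85, 0.067) and Lyve1 (1.29 from 1.89, 0.186). The calls of Nrros were lost in C118 (0.55 from 0.63, 0.258) and in Cort against RU486 (0.78 from 0.86, 0.155). The part of vessel, myelin or thalamic content in the members' differences was not tested.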

How the data were processed

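Total RNA of dorsal hippocampus was made into stranded mRNA libraries and read in pairs of 100 bases on a DNBseq instrument, per the labels' protocols. The authors deposited raw counts per Ensembl gene. HTSeq 0.6.1, FastQC, MultiQC and build mm10 are named in the submitters' processing notes. The aligner, the annotation release and the strand setting of the counting were not given in the sources used here. Left out were 5 summary rows that name no gene, which held 12.63 to 19.74% of a library's counts. Every pair of libraries of a group differed by more than sampling noise (lowest chi-square per degree of freedom 5.61).

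Groups and library numbers come from the sample titles. Genes were filtered with filterByExpr of edgeR 4.0.16 under R 4.3.3 (minimum count 10, minimum total 15), which left 16735 of 50686 genes. One robust quasi-likelihood fit with TMM scaling and a mean per group (22 residual degrees of freedom) gave two-sided p-values, adjusted by Benjamini-Hochberg over all tested genes in each of 15 pairs of groups and in the 6-group test, with a threshold of 0.05. "A against B" is A minus B. Levels are CPM on TMM-adjusted library sizes, with a prior count of 2 for log2 CPM. Positions are from GENCODE M21 (GRCm38). Promoter sequences are from RefSeq (GRCm38.p6). The fit was tested on simulated data.

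Members and lists were chosen with earlier results of these data known. Values in every library are given for each member called in any comparison and, in a class of genes with no call, for the member with the smallest 6-group p. From each other list, up to 4 called genes per comparison (smallest p first) were eligible. 1 of them is not reported here. Alternatives were RLE size factors, other filters, DESeq2 1.42.0, fits of 2 groups, region scores as covariates and leaving out libraries. Chosen after seeing the data were the sample number or a microglia score as a covariate and leaving out Cort 36, C108 39 and C118 38.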

Additional observations from a re-analysis of the deposited data

Results flagged for a closer look

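Samples that lay far from the rest of their group were sought in 72 combinations of a member and a group, and 3 were found, where chance flags about 1 in 20. In Basal, library 27 had 106 CPM of Lgmn, above the other 3 libraries at 88.5 to 90.0 CPM. In Cort, library 36 had 32.1 CPM of C1qb, below the other 4 at 45.1 to 49.1 CPM. In RU486, library 32 had 0.896 CPM of Lyve1, above the other 4 at 0.372 to 0.469 CPM.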

How the results depend on the processing

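Over 16 counts of called members and 314 alternatives, 52 moved by more than 1.5 times, of which 28 left out 1 library. The 22 calls of named members were refitted 470 times in all: 381 kept the call, 89 lost it and 0 reversed. Held throughout were the calls against Basal of Cx3cr1, Nrros, P2ry13 and Hpgds in Cort and of Nrros in Vehicle and C108, and the 6-group calls of Cx3cr1 and Nrros. Leaving out 1 library gave 2 to 6 members over the 6 groups. Against Basal, Vehicle had 1 to 4, Cort 6 to 9, RU486 0 to 3, C108 1 to 6 and C118 0 to 2. Against Vehicle it gave 0 to 1 in RU486 and C108. It gave 0 to 1 in Cort against RU486 and in Cort against C118, and 0 in every other pair. DESeq2 called 7 members over the 6 groups (4 by edgeR), 1 in RU486 against Vehicle, 2 in RU486 against Basal, 2 in Cort against RU486 and 1 in Cort against C118. With scores of thalamic and neocortical genes as covariates the counts were 2 over the groups, 4 in Cort, 1 in C108 and 0 in C118 against Basal, and 0 in Cort against RU486. Fits of only the 2 groups compared gave 4 in Vehicle, 2 in RU486 and 3 in C108 against Basal, and 0 in Cort against RU486. In Vehicle against Basal, no filter on low counts gave 1 and leaving out both Vehicle 16 and 29 gave 1. Among alternatives chosen after seeing the data, the sample number as a covariate gave 4 in Vehicle and 3 in C108 against Basal. The score of other homeostatic microglia genes gave 9 in Vehicle, 5 in RU486 and 2 in C118 against Basal, 1 in RU486 against Vehicle and 2 in Cort against RU486. Leaving out Cort 36, C108 39 and C118 38 gave 2 in Cort against RU486. The shares of all genes called in these alternatives are not given here, so a shift in a count need not be particular to the members. The cause of these shifts was not tested. No paired analysis was possible because each sample number in the titles is used once, so that the groups share none. At this depth the border macrophage genes rest on few counts, which limits their precision.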

Other observations

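Markers of the state that microglia take around amyloid plaques showed no call: of 23 listed genes 19 were tested, and edgeR called 0 against Basal in any group, with 2 at an unadjusted p under 0.05 in Vehicle, 1 in Cort, 1 in RU486, 4 in C108 and 1 in C118, where 18.1, 19.5, 22, 21.8 and 18.9% of all tested genes were. The member of this list nearest to a call over the 6 groups was Lpl, lipoprotein lipase (edgeR adjusted p = 0.172).

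Of 25 inflammatory and NF-kB genes, 15 passed the filter, and every call against Basal was a rise: 3 in Vehicle, 4 in Cort and 2 each in RU486, C108 and C118, where 1.64, 2.84, 2.61, 2.79 and 1.74% of all tested genes rose. Hmox1, haem oxygenase, rose in all 5 groups, from 4.16 ± 0.760 CPM (SD, n = 4) in Basal to 6.14 ± 0.511 in C108 and 6.55 ± 0.777 in RU486 (n = 5 each). Tlr7, a receptor for RNA in endosomes, rose in Vehicle (log2 fold change 1.04 ± 0.27, edgeR adjusted p = 0.0219), Cort (0.97, 0.0182) and RU486 (0.87, 0.045). Nfkbia, an inhibitor of NF-kB that is also induced by GR, rose in Vehicle, Cort, C108 and C118, by 0.75 to 0.98. Il1r1, the interleukin-1 receptor, rose in Cort (0.43 ± 0.11, adjusted p = 0.0165). Of 14 other border macrophage genes 7 were tested, and Ms4a6c was called, as a rise of 1.31 ± 0.39 in Cort (adjusted p = 0.0383).

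With the score of other homeostatic microglia genes as a covariate, a fit chosen after seeing the data, some members with no call against Basal were called as higher in Cort: C1qa (log2 fold change 0.40, edgeR adjusted p = 0.00573), C1qb (0.52, 0.00566), C1qc (0.35, 0.0417), Fcgr3 (0.60, 0.00118), Selplg (0.37, 0.0042), Ctss (0.38, 0.0451) and Cd163 (1.47, 0.0204). The rises were not confined to Cort: Fcgr3, C1qb and Tmem119 were called as higher than Basal in Vehicle, RU486 and C108. Selplg was called as higher in C108 and C118, and Ctss, Cd163 and Lyve1 in Vehicle. Calls were lost in that fit too. In Cort these were P2ry12 (-0.45, 0.0592), Sall1 (-0.40, 0.0606) and Irf8 (-0.53, 0.134). In C108 they were Cx3cr1 (-0.21, 0.248), Olfml3 (-0.17, 0.29), Hpgds (-0.46, 0.112), Sall1 (-0.34, 0.16) and P2ry13 (-0.51, 0.105), 5 of the 6 calls there. Of the 35 genes of that score, 6 were themselves called as lower in Cort. Falls were gained in that fit as well. Against Basal these were Cx3cr1 in Vehicle (-0.3, 0.0364) and P2ry13 (-0.54, 0.0277) and Hpgds (-0.46, 0.0383) in RU486. Cx3cr1 was called as lower in Cort than in RU486 (-0.39, 0.0392), and Nrros as lower in RU486 than in Vehicle (-0.77, 0.038). The share of all genes called in that fit is not given here.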
